A study of Mus musculus with 8 samples.

Results

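The genes described here encode the proteins of the mitochondrial ribosome and were measured in the cerebellum of old and young mice. They are the rows of the deposited count tables whose symbol begins with Mrpl (large subunit) or Mrps (small subunit) followed by a digit, with a mean of 1 or more CPM (counts scaled to a library total of 1000000) over the 8 libraries. This gave 77 genes of 17700 listed, 48 Mrpl and 29 Mrps. The name pattern alone matched 78 rows: Mrpl53 fell outside the limit with a mean of 0.288 CPM (15 counts over all libraries, 0 to 4 in each), and the member nearest inside it was Mrps36 at 2.16 CPM.

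Mitochondria keep a ribosome of their own, which translates the few messages encoded by mitochondrial DNA, all of them for subunits of the respiratory chain and the ATP synthase. Its RNA comes from mitochondrial DNA, but every protein is encoded in the nucleus, made in the cytosol and imported. Some of these proteins have relatives in the ribosomes of all domains of life, some only in bacteria, and the rest are found only in mitochondria. Neurons rely on the respiratory chain for most of their ATP, and the cerebellum is packed with granule neurons and holds the large, highly active Purkinje cells.

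The animals were C57BL/6JN mice with no allele, transgene or agent named in the labels. Old mice (n = 4) were aged 83 to 102 weeks and young mice (n = 4) 19 to 22 weeks, 2 of either sex in each group. In the labels, old 1 and old 3 were males, old 2 and old 4 females, young 1 and young 2 males, and young 3 and young 4 females. The series' design text names liver and other age ranges, so tissue and age were taken from the sample labels. RNA was total RNA of frozen tissue, and libraries were made with a kit that depletes ribosomal RNA.

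Libraries held 6079485 to 7236720 counts, so that 3 counts, the limit of a count of 0, correspond to 0.415 to 0.493 CPM (counting error only). The granule neuron markers summed to 3860 to 6264 CPM and the Purkinje cell markers to 3622 to 5010 CPM, while the 7 hepatocyte markers summed to 0.658 to 86.2 CPM, highest in old 2. Other tissue varied between libraries: Ttr, a defining transcript of the choroid plexus, stood at 1.56 CPM in old 3, 5.26 in young 3 and 2.35 in young 4, and at 150.3 to 432.3 in the other 5. Microglia markers summed to 91.1 to 165 CPM in old and 67.4 to 97.9 CPM in young mice. The part of these differences in the results on the ribosomal genes was not tested beyond the fits named below. In tissue RNA, fewer cells of a type and less RNA per cell cannot be told apart.

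Sequence at the starts of these genes is shown first, because nuclear genes for mitochondrial proteins are known for promoters without a TATA box that hold sites of NRF1, GABPA (an ETS factor) and YY1, and because many of these genes share their start region with a neighbour. RefSeq promoters of build GRCm38.p6, from 250 bases before to 50 after a start, matched 68 of the 77 members and were set beside 27025 promoters in all. The ETS letters CCGGAAG, on either strand, were in 24 member promoters (35.3%) and in 9.12% of all. The YY1 letters AAGATGGC were in 12 (17.6%) and in 2.88% of all, and CGCATGCG, the palindromic core of the NRF1 site, in 7 (10.3%) and in 1.91%. Each of these was in a larger share of member promoters than of all promoters. The 27025 promoters were not limited to genes of the count tables or by level, whereas members had to pass the CPM limit. Whether other genes expressed at like levels hold these letters as often was not tested. The letters CCAAT were in 26 (38.2%) and in 37.9% of all, and TATAAA in 4 (5.88%) and in 14.2%. Member promoters were also richer in G and C, with a median of 58.2% against 52.7% over all, and a match says only that these letters are in the window. Each motif was read on both strands, and an ETS and a YY1 match can share the bases AAG.

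The NRF1 letters were in 6 large and 1 small subunit genes. Sites in Mrpl39 and Mrps18b, described below for their values, and in Mrpl32, which held 2 copies, are shown with these letters in capitals. They lie at chr16:84735351-84735378, chr17:35916647-35916674, chr13:14613106-14613133 and chr13:14613043-14613070, all on the minus strand. The Mrps18b site lies past the annotated start of its neighbour on the other strand.
Mrpl39: aggagaggcgCGCATGCGcccccgcgtg
Mrps18b: aacggcccgaCGCATGCGcactgggagc
Mrpl32, farther: ttgacccttgCGCATGCGcaagaggggc
Mrpl32, nearer: gcggacttaaCGCATGCGctcagcccgc

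The ETS letters were found in the promoters of all 3 Mrps18 paralogs, shown with the letters in capitals together with Mrpl34 and Mrps26, which are described below for their values. The coordinates are chr17:46110968-46110994 (plus), chr17:35916391-35916407 (plus, at the edge of the window), chr5:100798593-100798619 (minus), chr8:71464879-71464905 (plus) and chr2:130563733-130563759 (minus).
Mrps18a: cacccctgctCCGGAAGcggaagtgca
Mrps18b: CCGGAAGagcgactgcg
Mrps18c: gcttcccgggCCGGAAGtcacgtgacc
Mrpl34: actacagctcCCGGAAGgccccgcggc
Mrps26: tgcgcccggcCCGGAAGtggccgcgga

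The YY1 letters, in capitals below, were in the promoter of Mrps11, the member with the smallest p for age, and in those of Mrps12 and Mrps18a. They lie at chr7:78783014-78783041 (minus), chr7:28742003-28742030 (plus) and chr17:46111005-46111032 (plus). The Mrps11 match lies past the start of its neighbour Mrpl46 and the Mrps12 match past that of Sars2, each on the strand of that neighbour. The Mrps18a match lies past its own start.
Mrps11: ggaagacagaAAGATGGCggcgcccgta
Mrps12: tttccactccAAGATGGCtgcgtccatg
Mrps18a: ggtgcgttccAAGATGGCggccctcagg

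Starts shared with a neighbour on the other strand were common in the family. A gene starting within 1000 bases on the opposite strand was present for 32 of 77 members (41.6%), against 2181 of 17562 protein-coding genes of the tables (12.4%), by the GENCODE M21 annotation of GRCm38. The 17562 genes were not limited by level, whereas members had to pass the CPM limit, and other genes of like levels were not compared. The share was 24 of 48 (50%) for Mrpl and 8 of 29 (27.6%) for Mrps genes. In 1 case both neighbours were members, Mrpl46 and Mrps11, which are read away from each other. The stretch shown for them, 29 bases (chr7:78783090-78783118, plus strand), lies between the RefSeq start of Mrpl46 and the GENCODE start of Mrps11. Within GENCODE the genes overlap at their starts, and 173 exon bases of Mrps11 lie over exons of Mrpl46. Mrps12, of the decoding centre, starts opposite Sars2, the mitochondrial seryl-tRNA synthetase, and the 146 bases between them (chr7:28741822-28741967, plus strand) hold 3 copies of ATTGG, the reverse complement of CCAAT, in capitals.
Mrpl46-Mrps11: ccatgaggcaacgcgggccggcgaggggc
Mrps12-Sars2: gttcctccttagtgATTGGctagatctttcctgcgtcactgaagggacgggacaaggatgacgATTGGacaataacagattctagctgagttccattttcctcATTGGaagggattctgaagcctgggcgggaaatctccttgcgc

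The first comparison asked whether these genes differ in level between old and young cerebellum. No member passed the test: 0 of 77 were called at an adjusted p of 0.05 (edgeR quasi-likelihood, Benjamini-Hochberg adjustment), where 17 of 14191 genes tested were called (0.12%). DESeq2 and limma-voom also called 0 members, where they called 125 (0.881%) and 1 (0.00705%) of all genes. The smallest adjusted p of a member in edgeR's quasi-likelihood test was 0.277. At an unadjusted p under 0.05 there were 5 members (6.49%), all lower in old mice, beside 11% of all genes in either direction, 5.76% lower and 5.25% higher. The old and young values did not overlap in 6 members, all lower in old mice (7.79%, against 3.42% of all genes), and in 0 members higher (3.15% of all genes). All 77 members passed the filter on low counts.

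The data also bound the size of any difference. The 95% confidence interval of the log2 fold change, old minus young, lay within 0.5 of 0 (a 1.41-fold difference) for 53 of 77 members and within 1 (2-fold) for 76. Mrps36 was the exception, with an interval from -0.33 to 1.15. The standard error of a member had a median of 0.12, and the coefficient of variation among 4 animals had a median over members of 10.4% in old and 10.6% in young mice.

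**Figure D1:**
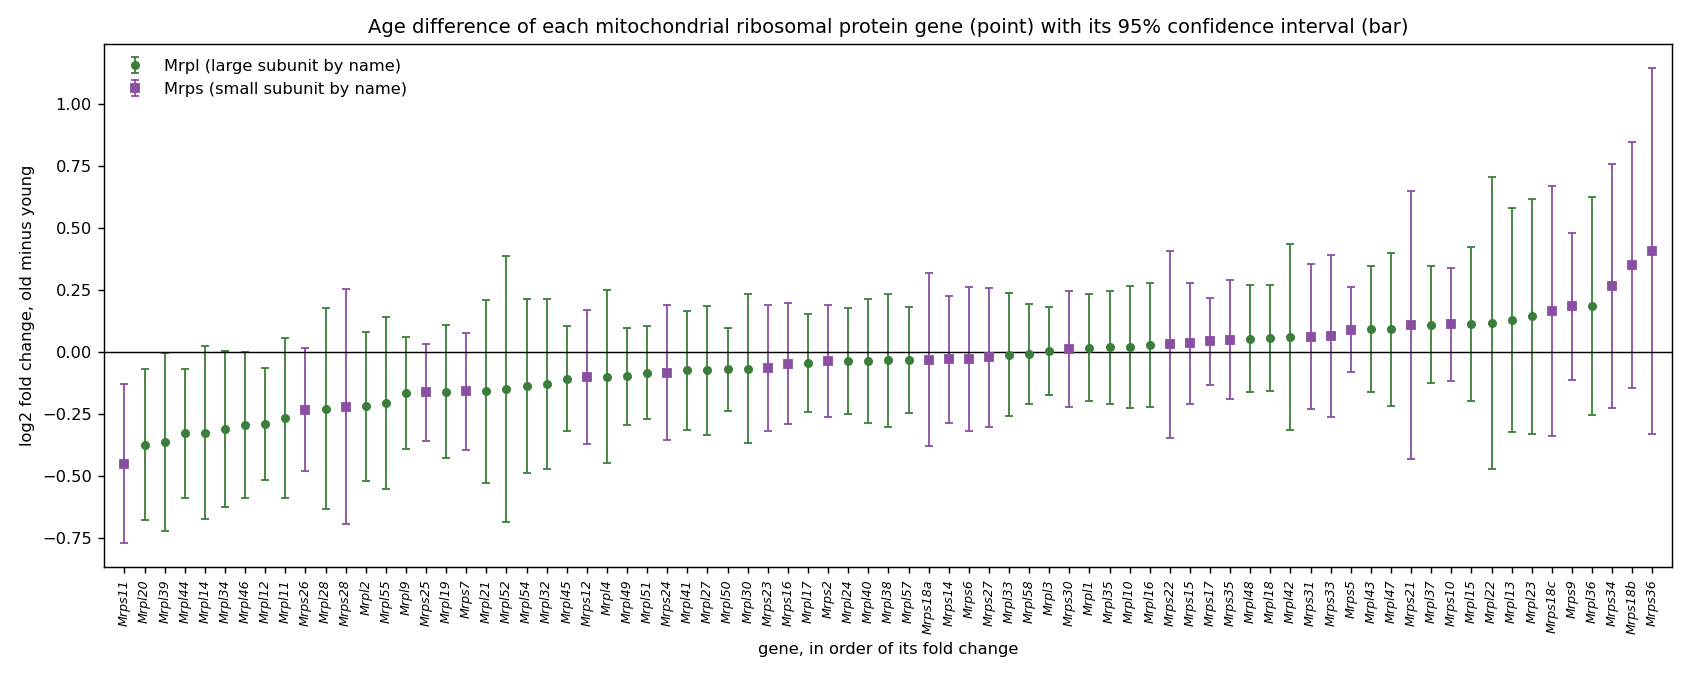
The log2 fold change (old minus young, vertical axis) of each of the 77 genes with its 95% confidence interval, ordered by value along the horizontal axis and marked by subunit. Values run from -0.45 (Mrps11) to 0.41 (Mrps36), and most intervals cross 0.

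Large and small subunit genes were then set side by side. Of the 48 Mrpl genes, 32 had a negative fold change (median -0.07), and of the 29 Mrps genes 14 (median 0.01). Over all genes tested the share was 51.4% and the median -0.01. With genes placed by their position in the ribosome rather than by name, negative values were found for 33 of 50 large and 13 of 26 small subunit genes, and the medians were -0.05 and 0.01. Mrps18a (mL66) and Mrps30 (mL65) then count with the large subunit, and Mrps36, now known as a part of the oxoglutarate dehydrogenase complex, counts with neither. Granule neuron markers were also mostly lower in old mice, 7 of 8 with a median of -0.19 and 0 called. With their score as a covariate, values were negative for 28 of 48 Mrpl and 12 of 29 Mrps genes, with medians of -0.03 and 0.07 by name.

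The ratio of summed Mrpl counts to summed Mrps counts in a library does not depend on how libraries are scaled. It was 1.86 in old 1, 1.94 in old 2, 1.96 in old 3 and 1.92 in old 4, a mean of 1.92 ± 0.04 (SD, n = 4). In young 1 to young 4 it was 2.03, 1.98, 1.97 and 2.02, a mean of 2.00 ± 0.03 (SD, n = 4). The 4 old values all lay below the 4 young values, by 0.08 between the means, with old 3 and young 3 nearest each other. Placed by position in the ribosome, the ratios were 2.05 to 2.16 in old and 2.15 to 2.24 in young mice and overlapped. Left out of the sum, Mrpl12, 1 of the most abundant members, took the ratio to 1.79 to 1.87 in old and 1.88 to 1.92 in young mice. Without the 8 members lower in old mice with the smallest p, it was 1.80 to 1.88 and 1.91 to 1.94. No test was made of these ratios.

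A score for each subunit, the median over its genes of the deviation of log2 CPM from the gene's mean over the 8 libraries, varied widely within each age. The large subunit score was lowest in old 1 (-0.19) and highest in young 4 (0.12), and the small subunit score was lowest in old 1 (-0.12) and highest in young 1 (0.10). The large score minus the small score was -0.08, -0.05, -0.02 and -0.10 in old 1 to old 4. It was -0.03, 0.03, 0.03 and 0.04 in young 1 to young 4, so that old 3 lay inside the young range. All members together took 0.177% of the counts in old 1, 0.197 to 0.199% in the other 3 old libraries and 0.182 to 0.202% in the young.

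**Figure D2:**
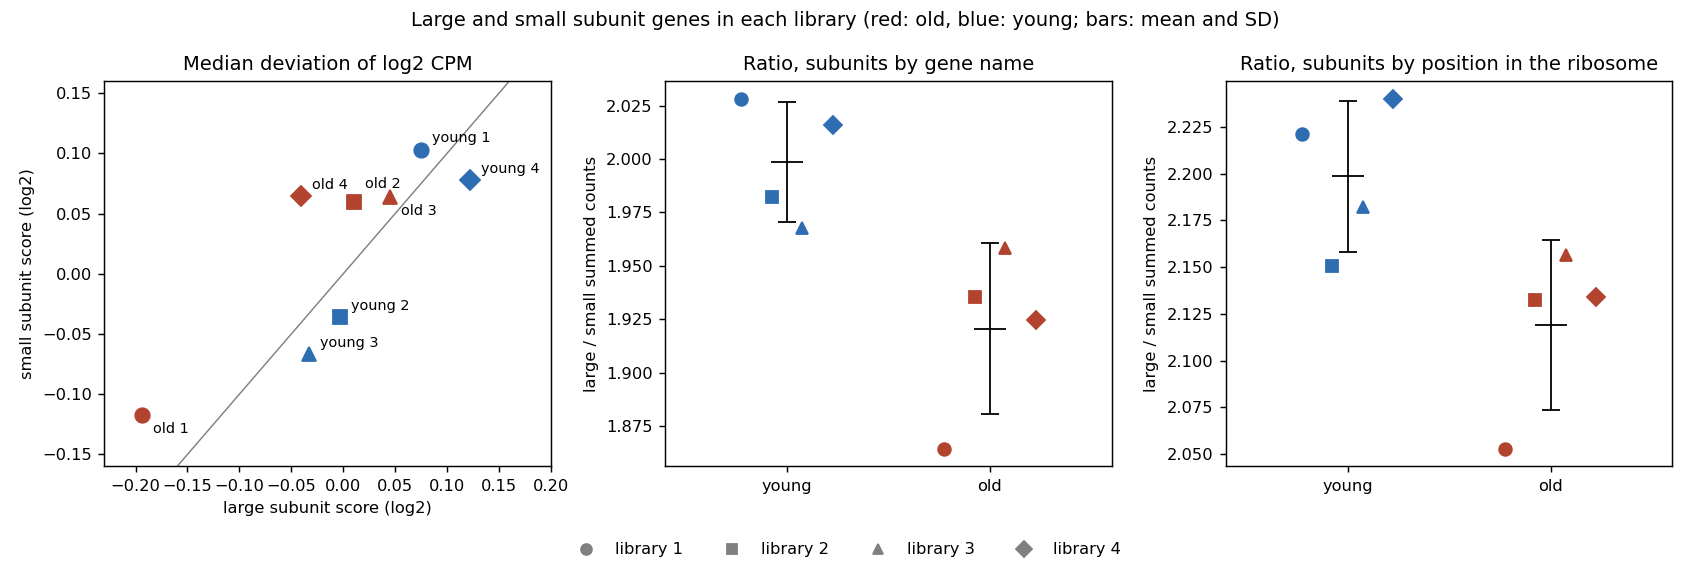
Left, the small against the large subunit score (log2) of each library with the line of equality; middle and right, the ratio of large to small summed counts by gene name and by position in the ribosome, with mean and SD bars for 4 old and 4 young libraries on axes that do not start at 0. The ratio by name separates old (1.86 to 1.96) from young (1.97 to 2.03), and the ratio by position does not.

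Old 1 and young 4 carried much of the spread. Old 1 held the lowest value of 33 of the 77 members and young 4 the highest of 24. These libraries also differed in cell markers: the granule neuron score, computed in the same way, was highest in young 4 (0.41) and lowest in old 4 (-0.34), with old 1 at -0.15. Old 4 and young 2 (-0.19) had lower scores than old 1, yet each held the lowest value of only 7 members. Young 1 (0.19) held the highest value of 18 members and young 3 (-0.06) the lowest of 15. A relation between this score and the members' values was not tested across libraries. Without old 1, 26 of 48 Mrpl genes were negative and 2 members had an unadjusted p under 0.05. Without old 3, 38 of 48 Mrpl and 18 of 29 Mrps genes were negative and 9 members had such a p. Without young 3 the negative values were 38 of 48 and 16 of 29, and 7 members had such a p. The share of all genes with such a p was not counted in these leave-outs. Whether the members changed more than other genes was therefore not tested. Without both old 1 and young 4, values were negative for 24 of 48 Mrpl and 9 of 29 Mrps genes, the medians being -0.0049 and 0.10. Without old 3, young 3 and young 4, the libraries low in Ttr, 43 of 48 and 19 of 29 were negative, with medians of -0.19 and -0.11. The leave-outs of several libraries were chosen after the values were seen, and every leave-out named here called 0 members. Over all genes, 2 were called without old 1 (0.0138%), 49 without old 3 (0.337%) and 0 without young 3. There were 0 without old 1 and young 4, and 4 (0.0275%) without old 3, young 3 and young 4. Where so few genes were called, 0 members says little about the members. The libraries highest in hepatocyte markers were old 2, old 3 and young 4 (86.2, 23.4 and 20.9 CPM). The fit without them called 0 members and 184 of all genes (1.28%). In it 32 of 48 Mrpl and 16 of 29 Mrps genes were negative, and the large minus small median was -0.02, against -0.08 with all libraries.

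By evolutionary class, the proteins shared only with bacteria had the largest share of negative values among the 3 classes, 15 of 19 with a median of -0.13. Of the 14 such genes of the large subunit 12 were negative (median -0.16), and of the 5 of the small subunit 3 (median -0.03). Proteins with relatives in all domains were negative in 12 of 27 (median 0.02), and mitochondria-specific proteins in 19 of 30 (median -0.03). Split by subunit, the mitochondria-specific genes were negative in 15 of 20 of the large (median -0.05) and 4 of 10 of the small (0.04). Those with relatives in all domains were negative in 6 of 16 (0.02) and 6 of 11 (-0.03). The class shared with bacteria is mostly of the large subunit, so class and subunit are mixed in its total. No test was made between classes, and 0 genes of any class passed the threshold.

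Among proteins shared with bacteria, Mrpl12 (bL12m) forms the stalk to which translation factors bind. Mrpl12 (chr11:120484613-120489065) stood at 45.7, 54.4, 57.5 and 57.1 CPM (scaled by TMM, as are the CPM values of single genes from here on) in old 1 to old 4, and at 74.8, 66.2, 59.0 and 62.9 CPM in young 1 to young 4. The groups did not overlap, with old 1 lowest and young 1 highest, and old 3 and young 3 close to each other. The means were 53.7 ± 5.5 and 65.7 ± 6.72 CPM (SD, n = 4), a log2 fold change of -0.29 ± 0.10 (SE) with an adjusted p of 0.324 in edgeR's quasi-likelihood test.

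Mrpl20 (bL20m, chr4:155802878-155809975) has a bacterial relative that acts early in assembly of the large subunit. It was at 17.8, 24.3, 24.7 and 23.8 CPM in old 1 to old 4 and at 33.7, 25.6, 26.1 and 31.8 CPM in young 1 to young 4. The values did not overlap, but old 1 stood apart from the other old mice, and young 2 and young 3 were close to them. Its log2 fold change was -0.37 ± 0.14 (SE), with an unadjusted p of 0.02 and an adjusted p of 0.346 in edgeR's quasi-likelihood test.

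Mrpl34 (bL34m, chr8:71464959-71465747), a very small protein of the subunit core, was at 13.96, 15.8, 17.6 and 17.4 CPM in old 1 to old 4 and at 25.0, 20.7, 18.6 and 16.6 CPM in young 1 to young 4. Young 4 lay inside the old range, so the groups overlapped, and the log2 fold change was -0.31 ± 0.14 (SE). Mrpl36 (bL36m), another very small protein, ranged the other way, from 7.22 to 14.9 CPM in old and 9.09 to 11.9 CPM in young mice (0.19 ± 0.20, log2 fold change and SE), with old 1 lowest of all 8.

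Among proteins with relatives in all domains, Mrps11 (uS11m, chr7:78783119-78792989), of the small subunit platform, had the smallest p of all members. It stood at 8.98, 9.50, 8.33 and 7.89 CPM in old 1 to old 4 and at 11.8, 10.7, 11.8 and 13.2 CPM in young 1 to young 4. No old value reached the lowest young one, and old 1 was not the lowest of its group here. The log2 fold change was -0.45 ± 0.15 (SE), the unadjusted p 0.0102 and the adjusted p 0.277 in edgeR's quasi-likelihood test. The gene gave 50 to 94 counts per library, and 173 bases of its exons (7.97%) lie over exons of Mrpl46 on the other strand.

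The core small subunit proteins that were higher in old mice with the smallest p had overlapping groups. Mrps9 (uS9m) ranged from 20.99 to 26.2 CPM in old and 17.8 to 24.0 CPM in young mice, with a log2 fold change of 0.18 ± 0.14 (SE). Mrps5 (uS5m), known from work that linked its dose to lifespan in worms, was at 53.3, 59.9, 56.3 and 62.6 CPM in old 1 to old 4 and at 49.2, 54.7, 56.2 and 57.8 CPM in young 1 to young 4. Old 2 and old 4 lay above the young range and the other old values within it, and the log2 fold change was 0.09 ± 0.08 (SE), with an interval from -0.08 to 0.26. Mrps10 (uS10m) had 0.11 ± 0.10, and Mrps12 (uS12m), whose bacterial relative is the site of streptomycin resistance, -0.10 ± 0.12.

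Among mitochondria-specific proteins, Mrpl44 (mL44, chr1:79776018-79781445), which has the fold of an RNase III enzyme, was at 17.0, 20.7, 21.9 and 18.0 CPM in old 1 to old 4 and at 25.4, 23.05, 23.2 and 25.7 CPM in young 1 to young 4. The groups did not overlap, with old 3 nearest the young values. Between the ages the log2 fold change was -0.33 ± 0.12 (SE), with an adjusted p of 0.334 in edgeR's quasi-likelihood test. Wdfy1, which starts opposite Mrpl44, had 0.13.

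Mrpl39 (mL39, chr16:84717576-84735742), related in sequence to threonyl-tRNA synthetases and 1 of the 7 genes with the NRF1 letters, was at 7.06, 8.92, 10.5 and 9.78 CPM in old 1 to old 4 and at 11.2, 11.0, 10.9 and 13.5 CPM in young 1 to young 4. The groups did not overlap, by a margin of less than 1 CPM between old 3 and young 3. The log2 fold change was -0.36 ± 0.16 (SE) and the unadjusted p 0.0481. Mrpl32, whose promoter holds those letters at 2 places, had -0.13.

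Mrps26 (mS26, chr2:130563742-130568695), of the small subunit, was at 31.8, 47.5, 44.7 and 44.7 CPM in old 1 to old 4 and at 49.5, 50.02, 50.8 and 47.6 CPM in young 1 to young 4. The groups did not overlap, but old 2 and young 4 differed by less than the spread of either, and old 1 was far below the rest. The log2 fold change was -0.23 ± 0.11 (SE), with an unadjusted p of 0.064. Mrpl46 (mL46, chr7:78775236-78783531), the neighbour of Mrps11, was at 13.5 to 18.2 CPM in old and 17.9 to 20.6 CPM in young mice, with -0.29 ± 0.13 (SE).

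Of the mitochondria-specific proteins higher in old mice, Mrps34 (mS34), needed for a stable small subunit, was at 5.13, 4.32, 7.39 and 6.94 CPM in old 1 to old 4 and 4.26 to 5.49 CPM in young mice. Its highest values were old 3 and old 4 and its other old values lay in the young range, giving 0.27 ± 0.23 (log2 fold change and SE). Of its exons, 63.4% lie over exons of Mapk8ip3 on the other strand and 37% over exons of Nme3 on the same strand. The strand setting of the counting is not given, so reads of the overlapping genes cannot be told apart. For the bases shared with Nme3 no strand setting would separate them. Mrpl37 (mL37) had 0.11 ± 0.11.

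**Figure D3:**
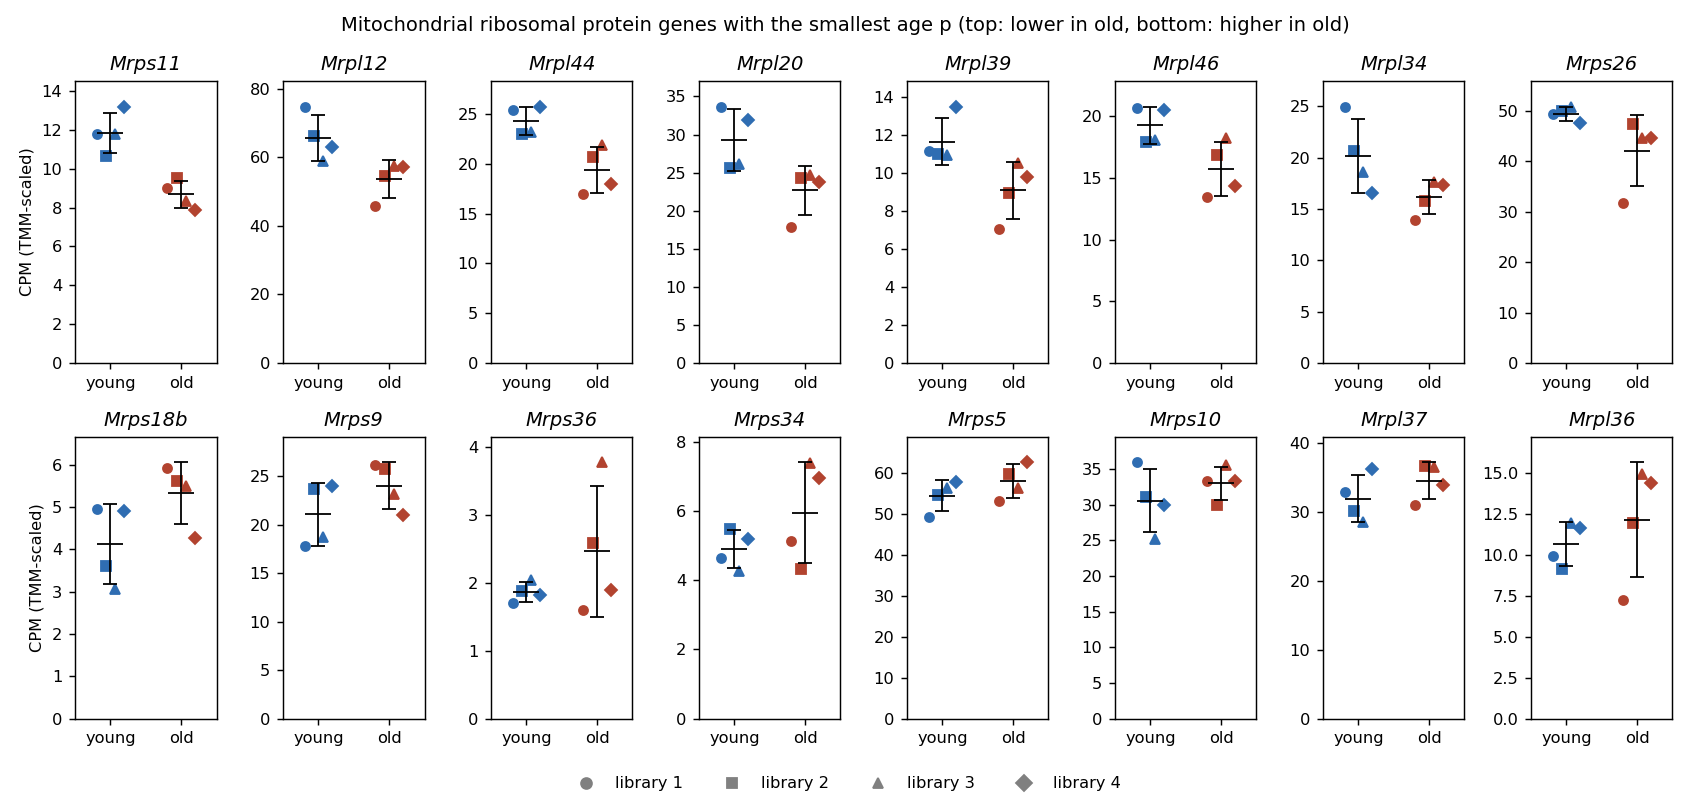
CPM (TMM-scaled) of the 8 members lower and the 8 members higher in old mice with the smallest unadjusted p, 1 point per library, with the mean and SD of 4 young and 4 old libraries and axes from 0. In the top row 6 genes have no overlap of old and young, and in the bottom row every gene overlaps.

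The 3 Mrps18 genes are paralogs that in mammals sit at different places, Mrps18a in the large and Mrps18b and Mrps18c in the small subunit. Mrps18a was at 11.7, 15.8, 16.4 and 16.9 CPM in old 1 to old 4 and 17.4, 12.2, 14.3 and 18.0 CPM in young 1 to young 4, with a log2 fold change of -0.03 ± 0.16 (SE). Mrps18b was at 5.94, 5.61, 5.50 and 4.26 CPM in old and 4.96, 3.61, 3.07 and 4.91 CPM in young mice in the same order, with 0.35 ± 0.23. Mrps18c was at 4.33, 5.47, 5.82 and 3.95 CPM in old and 5.12, 3.45, 3.92 and 4.91 CPM in young mice, with 0.17 ± 0.23. All 3 had overlapping groups, and Mrps18b and Mrps18c rested on 18 to 39 counts per library. The sign of Mrps18a depended on the fit and on single libraries, old 1 among them, without which it was 0.06.

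The members with names that do not match their place gave no call either. Mrps30 (mL65), a large subunit protein, was at 24.9, 24.2, 23.1 and 25.9 CPM in old 1 to old 4 and at 21.7, 20.9, 27.1 and 27.8 CPM in young 1 to young 4. Its old values lay wholly inside the young range, in which the 2 males were low and the 2 females high, and its log2 fold change for age was 0.01 ± 0.11 (SE). Mrps36, the least abundant member, was at 1.604, 2.59, 3.77 and 1.89 CPM in old and 1.71, 1.88, 2.05 and 1.82 CPM in young mice, on 10 to 24 counts per library. Old 3 alone lay well above the rest, and the log2 fold change was 0.41 ± 0.34 (SE).

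Levels differed far more between members than between ages. Per kilobase of merged exons, the mean level over 8 libraries ran from 0.917 to 57.3 CPM per kilobase, with a median of 8.07 for all members, 9.64 for Mrpl and 6.78 for Mrps genes. The 3 highest were Mrpl41 (57.3), Mrpl12 (39.0) and Mrpl50 (30.5), all of the large subunit, followed by Mrpl34 (30.0). The 3 lowest were Mrpl23 (1.79), whose protein lies at the exit of the peptide tunnel, Mrps36 (1.70) and Mrpl13 (0.917). In CPM, Mrpl50 was at 61.5 to 64.9 in old and 62.6 to 69.5 in young mice, and Mrpl41 at 43.0 to 54.2 and 43.5 to 58.3. Mrpl13 was at 6.10 to 9.12 CPM in old and 5.45 to 8.70 CPM in young mice, over 7936 bases of merged exons. Merged exons include every annotated transcript, so a gene with long rare transcripts gets a low value, and most proteins of a ribosome are present once in each particle.

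**Figure D4:**
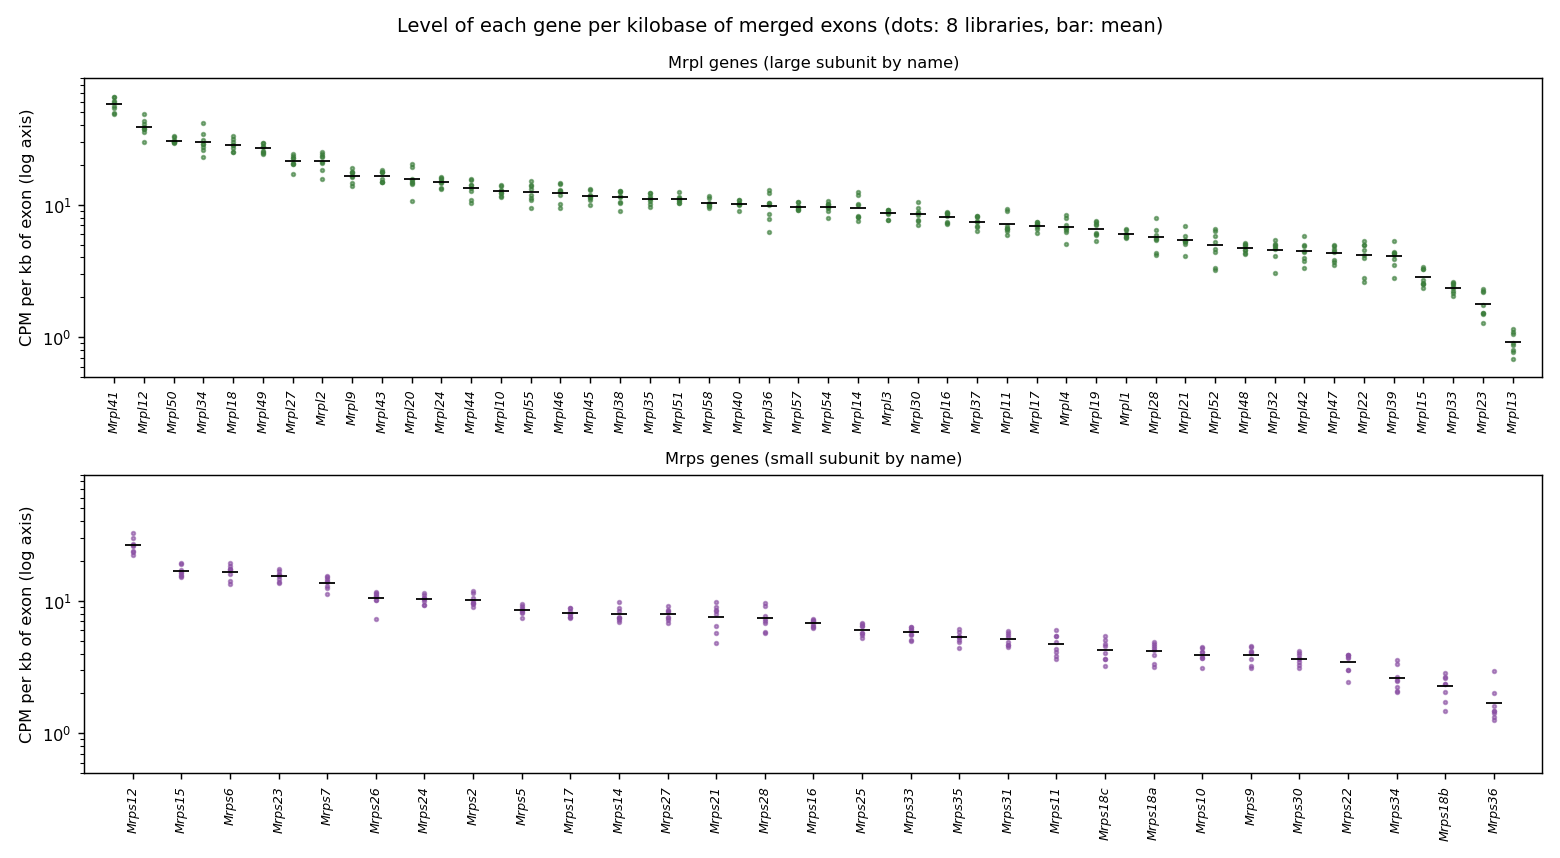
Level of each Mrpl and Mrps gene in CPM per kilobase of merged exons on a log axis, with 1 dot for each of the 8 libraries and a bar for the mean. The range between genes, 0.917 to 57.3, is far wider than the range of any gene between libraries.

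The second comparison was between the sexes, across both ages. After Benjamini-Hochberg adjustment of the edgeR quasi-likelihood test, 0 of 77 members were called, where 6 of 14191 genes were (0.0423%). At an unadjusted p under 0.05 there were 0 members and 4.76% of all genes. DESeq2 and limma-voom called 0 members, and 9 (0.0634%) and 4 (0.0282%) of all genes. The median log2 fold change, female minus male, was 0.04 for Mrpl (18 of 48 negative) and -0.02 for Mrps genes (16 of 29 negative). The direction of the Mrpl median depended on the fit and on old 1: it was -0.04 (32 of 48 negative) with the replicate number as a block and -0.02 (28 of 48) without old 1. Mrps14 (uS14m) had the smallest p, with 28.0 ± 3.64 CPM in females and 23.9 ± 0.934 CPM in males (SD, n = 4), a log2 fold change of 0.23 ± 0.12 (SE) and an adjusted p of 0.93 in edgeR's quasi-likelihood test. Young 4, at 32.3 CPM, was its highest library. Mrps30 had 0.21 ± 0.11 and Mrps2 (uS2m) 0.20 ± 0.10. The members lower in females with the smallest p were Mrpl14 (uL14m), with 8.02 ± 1.06 CPM in females and 10.02 ± 1.83 CPM in males, Mrps10 and Mrps25, with log2 fold changes of -0.31 ± 0.16, -0.20 ± 0.10 and -0.16 ± 0.09 (SE). Of the exons of Mrps25, 69.8% lie over those of Nr2c2 on the other strand.

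The third comparison asked whether the age difference of a member differs between females and males, in cells of 2 animals. By edgeR's quasi-likelihood test 0 members and 0 of all genes were called (0%), 2.3% of all genes and 0 members had an unadjusted p under 0.05, and DESeq2 called 1 gene, no member. The smallest p values belonged to Mrpl35 (bL35m), Mrpl41 and Mrpl34, with differences between the log2 fold changes of females and males of 0.36 ± 0.19, 0.36 ± 0.21 and 0.45 ± 0.27 (SE). The median standard error of a member in this comparison was 0.26, so that differences of the size seen for age were not detectable in it.

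Members with a neighbour starting on the other strand were compared with that neighbour. Of 29 such pairs with both genes tested, 14 had log2 fold changes of one sign, 10 both negative and 4 both positive. Across these pairs Pearson's r was 0.1 and Spearman's rho 0.0941, as a description, since both genes of a pair come from the same libraries and some overlap. In the pair of 2 members both values were negative, -0.45 for Mrps11 and -0.29 for Mrpl46. Sars2 had -0.22 ± 0.20 (SE) beside -0.10 for Mrps12. Twnk, the helicase of mitochondrial DNA, had -0.14 ± 0.13 beside 0.09 for Mrpl43. No neighbour that is not itself a member had an unadjusted p under 0.05. Exon bases were shared with another gene of the tables by 21 members, in 19 of them with a gene on the opposite strand.

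**Figure D5:**
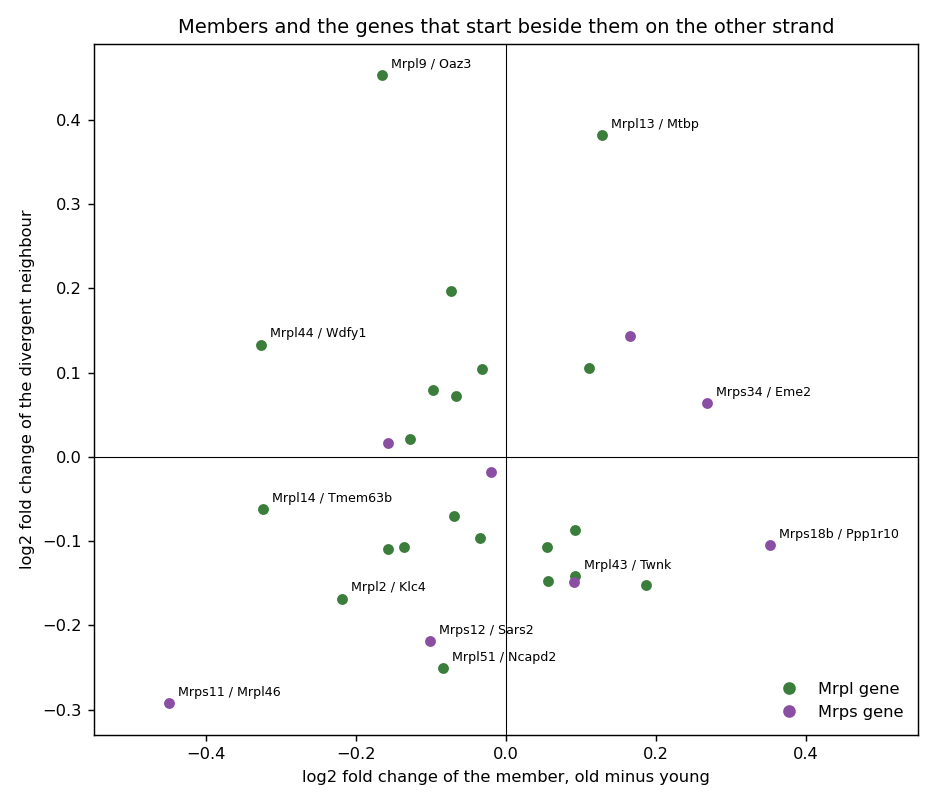
The log2 fold change (old minus young) of each member against that of the gene starting beside it on the other strand, for 29 pairs, coloured by subunit. The points show no common line (Pearson's r 0.1), and Mrps11 with Mrpl46 is the only pair of 2 members.

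Other genes of the pathway were counted from lists chosen by function, and 0 genes of any of these lists passed the threshold for age. Of the 6 mitoribosomal proteins under other names, 5 had rows that were tested and 4 were negative, with a median log2 fold change of -0.16; Ict1 is listed under its newer symbol Mrpl58 and is a member. Aurkaip1 was at 83.0 ± 12.7 CPM in old and 97.1 ± 7.41 CPM in young mice (SD, n = 4), with a log2 fold change of -0.23. Gadd45gip1 had -0.27, Dap3, a GTP-binding protein of the small subunit, -0.16, Chchd1 -0.09 and Ptcd3 0.03.

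Factors that act on the ribosome showed values of both signs. Of 14 mitochondrial translation factors 7 were negative (median 0.00). Gfm2, which takes part in recycling the ribosome, was at 49.998 ± 2.22 CPM in old and 39.9 ± 3.97 CPM in young mice (SD, n = 4), without overlap, and had a log2 fold change of 0.33 ± 0.09 (SE) and an adjusted p of 0.191 in edgeR's quasi-likelihood test, below that of every member. Mtfmt, which formylates the initiator, had 0.31, and Tufm, the elongation factor that brings in tRNAs, -0.24. Of 20 mitochondrial aminoacyl-tRNA synthetases 9 were negative (median 0.01), with Yars2 at 0.29, Nars2 at 0.28 and Aars2 at -0.19.

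Of 25 genes for assembly of the ribosome and modification of its RNA 16 were negative (median -0.02). Mettl15, a methyltransferase of the small subunit RNA, had 0.49, Malsu1, which binds the maturing large subunit, 0.28, and Mrm1 -0.25. Of 20 genes for expression of mitochondrial DNA 8 were negative (median 0.02), with Mtpap at 0.20, Tfb2m at -0.19 and Pnpt1 at 0.20. Of 9 matrix proteases and chaperones 7 were negative (median -0.15), with Hspa9 at -0.22, Clpx at -0.21 and Hspd1 at -0.19.

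Of 9 regulators of nuclear genes for mitochondrial proteins 4 were negative (median 0.09). For the factors whose letters were searched in the promoters, Nrf1 was at 33.6 ± 1.89 CPM in old and 36.7 ± 2.25 CPM in young mice (SD, n = 4), with a log2 fold change of -0.13 ± 0.09 (SE). Gabpa was at 62.3 ± 5.31 and 55.8 ± 5.65 CPM (0.16 ± 0.09), and Yy1 at 133.4 ± 13.4 and 138.5 ± 5.52 CPM (-0.05 ± 0.08). The coactivators Pprc1 and Ppargc1a had 0.25 and 0.10, and the receptor Esrra -0.22.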

How the data were processed

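Total RNA of 8 cerebella was sequenced, 1 library per mouse. The authors deposited 1 table of raw counts per gene for each library, per the file headers; the values are integers and nothing was scaled. Among the tools in the submitters' processing notes are STAR 2.7.5b, Trimmomatic 0.39 and featureCounts, with GRCm38 as the build. Which annotation and strand setting the counting used is not given in the sources used here. Gene names that a spreadsheet had turned into dates (24 in 7 of 8 tables) were restored by row from the table without them.

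Libraries were scaled with TMM and genes kept by filterByExpr (minimum count 10) over the 4 age-by-sex cells. Tests used the quasi-likelihood method of edgeR 4.0.16 in R 4.3.3, with terms for age and sex, fitted on all 14191 genes kept, with Benjamini-Hochberg adjustment and a threshold of 0.05; the interaction was fitted on cells of 2 animals. The fits for age, sex and the interaction were each also run on simulated data, with results not given here. DESeq2 1.42.0 and limma 3.58.1 were alternatives, with other filters, scalings, covariates and leave-outs. Log2 CPM for scores used a prior count of 2. No 2 libraries of the same age agreed within sampling noise; pairs across ages were not compared. P-values set a difference against the spread between these animals, estimated for each gene with information from all genes kept.

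The members, the lists and the tests were chosen with earlier results of these data known. Genes were named by rule: members past the threshold, the 8 lower and the 8 higher in old mice with the smallest p, the 3 of highest and of lowest level per kilobase, 3 each way for sex, 3 for the interaction, 7 named for their position or paralogs, and up to 3 per pathway list with the smallest p, with the renamed proteins and 5 regulators. Mrpl32 and the neighbours Sars2, Twnk and Wdfy1 were named outside it, for their start regions, and Mrpl22 for its low counts, after their values were seen. Lists of markers were those of granule neurons, Purkinje cells, Bergmann glia and astrocytes, oligodendrocytes, microglia, endothelium, choroid plexus, hepatocytes and erythroid cells. Old and young libraries ranged from 2032 to 2566 and 1780 to 2515 CPM for glia and astrocytes, 3674 to 4979 and 3363 to 5583 for oligodendrocytes, 111 to 154 and 87.3 to 149.9 for endothelium, 30.9 to 822.8 and 16.9 to 382 for choroid plexus, and 43.1 to 86.7 and 33.9 to 53.1 for erythroid markers.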

Additional observations from a re-analysis of the deposited data

Results flagged for a closer look

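In 68 groups of 4 libraries examined (a named member, score or share in the old or in the young mice), 7 had 1 library far from the other 3, and chance alone marks about 1 group in 20. Of the 7, 3 were old 1. Mrpl20 was at 17.81 CPM in old 1 and at 23.83 to 24.69 in the other old libraries. The small subunit score was -0.117 in old 1 and 0.05942 to 0.06422 in the others. The members' share of all counts was 0.1775% in old 1 and 0.1969 to 0.1994% in the others.

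Young 4 was far above its group for Mrpl39, at 13.47 CPM against 10.91 to 11.17, and for Mrps14, at 32.27 CPM against 23.52 to 24.81. Mrps2 was at 33.46 CPM in old 4 and at 27.67 to 28.35 in the other old libraries. The large minus the small subunit score was -0.02827 in young 1 and 0.03318 to 0.04442 in the other young libraries, so that young 1 was the young library on the side of the old ones.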

How the results depend on the processing

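No member was called for age, sex or the interaction under any alternative run, and 1182 of the 1215 alternative values for single genes kept their direction and side of the threshold, as did 198 of the 212 for counts, medians and ratios. The smallest adjusted p of a member for age ranged from 0.184 to 0.902, while genes called for age over all genes ranged from 0 to 184 (1.28%). That 184 came without old 2, old 3 and young 4, the libraries highest in hepatocyte markers, against 17 in the main fit. DESeq2 called 125, the fit with the granule neuron score 135 and limma-voom 1. The causes were not tested.

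Large minus small median (main -0.08) moved to -0.04476 with limma-voom, -0.04192 with 50 counts in 4 libraries required and -0.01633 without old 2, old 3 and young 4, and ranged from -0.1 to -0.0373 with 1 library left out. Without old 3, young 3 and young 4 the medians were -0.1881 (large) and -0.1104 (small), and without old 1 and young 4 the small median was 0.1009. Requiring 50 counts gave small medians of 0.07428 for sex and 0.09524 for the interaction. Interaction medians ranged from -0.0594 to 0.1432 (large) and -0.06272 to 0.172 (small) with 1 library left out, the upper ends without old 3.

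The following named genes changed sign under some alternative. Mrps18a was 0.01716 with the GC correction, 0.09298 with the granule neuron score, 0.002594 with the choroid plexus score and 0.1648 without old 1 and young 4. Mrps30 was -0.0006835 with limma-voom, -0.0375 with the GC correction and -0.003315 without old 1 and young 4. Ptcd3 was -0.02722 with the GC correction. Without old 2, old 3 and young 4, Mrps36 was -0.1382, Mrpl36 -0.06436, Chchd1 0.0003603 and Ptcd3 -0.003522. Without old 3, young 3 and young 4, Mrps36 was -0.1554, Mrps10 -0.002862, Mrpl37 -0.021, Mrpl36 -0.3933, Ptcd3 -0.008691 and Yy1 0.1076. Without old 1 and young 4, Chchd1 was 0.003255 and Ppargc1a -0.0174. With 1 library left out, Mrpl36 ranged from -0.02859 to 0.3502, Mrps18a from -0.119 to 0.08155, Mrps30 from -0.04013 to 0.06274 and Ptcd3 from -0.04678 to 0.08084.

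Nothing in the labels says that replicate numbers pair animals, and same-numbered libraries did not deviate together (correlations of 0.156, -0.222, -0.048 and -0.252). With the replicate number as a block, 1 gene and 0 members were called for age, the medians were -0.05957 (large) and 0.01712 (small), and 1 member had an unadjusted p under 0.05. With the block and the GC correction 0 genes were called, and Mrps18a was 0.02326, Mrps30 -0.0321 and Ptcd3 -0.02677. For sex the block gave medians of -0.03527 (large, main 0.04) and -0.02156 (small). Members with fewer than 40 counts in every library (Mrps18b, Mrps18c, Mrps36 and Mrpl22) had standard errors of 0.23 to 0.34 for age, against a median of 0.12 over members.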
